A study of Mus musculus with 51 samples.

Results

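A set of 10 genes that are widely used as marks of macrophages was followed through CD8+ T cells sorted from mouse mammary tumors and spleen. They were Lyz2, Apoe, C1qa, C1qb, C1qc, Csf1r, Mrc1, Ms4a7, Cd68 and Cd14, taken by gene symbol from both deposited tables. No threshold on their values was used, but the set was chosen with earlier results of these data known. Of the 10 names, 6 were among the 10560 genes of the table of untreated libraries (Lyz2, Apoe, C1qb, C1qc, Csf1r and Cd68). All 10 were among the 13458 genes of the table of libraries under immune checkpoint blockade, so that C1qa, Mrc1, Ms4a7 and Cd14 were not analysed here in untreated tumors.

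The tumors came from AT3-OVA, a mouse mammary carcinoma line that carries ovalbumin as a model antigen, and every library is RNA from CD8+ T cells purified by flow cytometry, with no allele or strain given in the labels. Untreated tumor cells were divided into CD103+CD69+ cells (DP below), CD103-CD69+ cells (SP) and CD103-CD69- cells (DN) at weeks 1, 2, 4 and 6. DP libraries numbered 3, 4, 3 and 3 at these weeks, SP libraries 3, 3, 2 and 3, and DN libraries 2, 3, 3 and 2. From untreated spleen, titled Cntrl Spleen, naive cells and cells labelled CM and EM were taken, with 3 libraries in each group. The checkpoint blockade table held tumors on day 40, with 3 DP, 3 SP and 2 DN libraries, and the labels do not name the antibodies. Whether a replicate is 1 mouse or a pool is not stated, so p-values measure only the spread between these samples, which may be technical.

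Macrophages are phagocytes that live in most tissues and gather in tumors, where they clear dead cells, present antigen and restrain or feed T cells. Several of the 10 genes serve that work directly: C1q, the first component of the classical complement pathway, tags debris for uptake, lysozyme cuts bacterial walls, and CD68 is a glycoprotein of the lysosome. CD8+ T cells are not known as a main source of C1q, lysozyme or the CSF1 receptor. In RNA from a bulk sort, fewer cells of a type and less RNA per cell cannot be told apart, so each value below describes a library of sorted cells and does not say which cells held the transcript.

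C1qa, C1qb and C1qc encode the A, B and C chains that assemble into C1q. In GRCm38 with the GENCODE vM21 annotation they lie side by side on the minus strand of chromosome 4, with C1qb at chr4:136880129-136886187, C1qc at chr4:136889804-136893065 and C1qa at chr4:136895917-136898803. The gaps between neighbours are 3616 and 2851 bases. Lyz2 lies at chr10:117277331-117282321, Apoe at chr7:19696109-19699188, Cd68 at chr11:69664213-69666153 and Ms4a7 at chr19:11321039-11336146, all on the minus strand, and Mrc1 at chr2:14229392-14332057 on the plus strand.

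RefSeq promoter entries (GRCm38.p6) were matched by symbol for 7 members, and the 250 bases before the annotated start were searched on both strands for 3 motifs. The motif GAGGAA, which holds the core bound by the myeloid factor PU.1, was in 5 of the 7 (Apoe, C1qb, C1qc, Mrc1 and Cd68), where 23.1% of 27025 promoters of the same length hold it. AGGAAG, a related core of the ETS family whose letters can overlap with GAGGAA, was in 4 of the 7 (Lyz2, C1qb, C1qc and Mrc1), against 29.2% of all. TGAGTCA, the site of AP-1 factors, was in Cd68 alone among the 7, against 4.43% of all. A match describes letters and is neither a bound site nor a cause, and a missing match says only that the letters are not in this window. The stretches of 4 members are printed 5′ to 3′ because their genes carry the results below: Apoe passed the test in untreated tumors, C1qb had the widest span of the untreated group means among the 6, Mrc1 had the largest difference under checkpoint blockade, and Cd68 was the member that did not pass there. They are chr7:19699189-19699438 on the minus strand for Apoe (the first of 3 entries), chr4:136886201-136886450 on the minus strand for C1qb, chr2:14229164-14229413 on the plus strand for Mrc1 and chr11:69666171-69666420 on the minus strand for Cd68. Capitals mark GAGGAA or its complement TTCCTC.
Apoe: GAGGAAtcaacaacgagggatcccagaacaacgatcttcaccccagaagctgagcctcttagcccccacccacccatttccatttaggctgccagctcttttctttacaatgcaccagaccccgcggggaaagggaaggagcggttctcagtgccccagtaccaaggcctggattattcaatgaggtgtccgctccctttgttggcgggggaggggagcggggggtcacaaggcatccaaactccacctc
C1qb: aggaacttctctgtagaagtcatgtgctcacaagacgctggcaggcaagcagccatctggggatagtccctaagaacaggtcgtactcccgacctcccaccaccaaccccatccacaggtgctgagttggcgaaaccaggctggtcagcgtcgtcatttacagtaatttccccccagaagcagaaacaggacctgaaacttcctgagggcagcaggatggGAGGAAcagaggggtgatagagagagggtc
Mrc1: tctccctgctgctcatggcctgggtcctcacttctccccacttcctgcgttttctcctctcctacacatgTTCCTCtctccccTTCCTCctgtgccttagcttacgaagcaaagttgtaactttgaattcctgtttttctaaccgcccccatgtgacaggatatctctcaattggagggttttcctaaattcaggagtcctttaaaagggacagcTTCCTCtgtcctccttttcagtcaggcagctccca
Cd68: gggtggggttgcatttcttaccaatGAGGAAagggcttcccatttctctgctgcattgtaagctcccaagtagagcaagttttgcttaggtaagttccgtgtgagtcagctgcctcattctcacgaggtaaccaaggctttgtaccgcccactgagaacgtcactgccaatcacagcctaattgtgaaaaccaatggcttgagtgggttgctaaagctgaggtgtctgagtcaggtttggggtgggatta

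All values are the deposited normalized values, read as log2, and differences are differences of group means on that scale. Read counts were not used here, so the depth of each library is unknown. A level of 1 gene cannot be set against that of another, since the levels are not abundances: the median over the 34 untreated tumor libraries was -17.12 for C1qb and 12.57 for Csf1r. Both tables vary in fewer independent directions than their libraries allow, with a residual rank of 18 of 28 in the untreated table and 2 of 5 in the other, and the limma tests used degrees of freedom reduced to match. A gene passed the test at a Benjamini-Hochberg adjusted p below 0.05 over all genes of its table. All 16 genes of a T-cell identity list were in both tables.

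The sort markers followed their gates in part. Itgae, which encodes CD103, was higher in DP than in DN by 2.82 in untreated tumors (limma adjusted p = 2.8e-06) and by 4.46 under checkpoint blockade (adjusted p = 0.00477). At week 1 its difference between DP and DN was 1.09 and did not pass (adjusted p = 0.225). Itgae was also higher in SP than in DN, both sorted as CD103-, by 1.71 in untreated tumors (adjusted p = 0.000583) and by 2.11 under blockade (adjusted p = 0.0283). Cd69 was higher by 0.78 in DP and 0.82 in SP than in DN in untreated tumors (adjusted p = 0.0059 and 0.00651). Under blockade Cd69 differed from DN by 0.27 in DP (adjusted p = 0.112) and by -0.03 in SP (adjusted p = 0.86). DN libraries do not share a range of library codes with most of the others: 7 of the 10 carry codes 46 to 61 and 3 carry codes 72 to 75, while 11 of the 13 DP libraries, 10 of the 11 SP libraries and all 9 spleen libraries carry codes 5 to 42. What the codes stand for is not given in the labels.

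Under checkpoint blockade all 10 genes had their highest mean in DP and their lowest in DN. Between DP and DN, 9 of the 10 were higher in DP past the test, by 2.05 to 3.47, where 7.49% of all genes passed in either direction and 4.47% were higher. The median difference of the 10 was 2.31, beside 0.0052 over all genes. In every member each of the 3 DP libraries lay above each DN library, which 37.5% of all genes also show. A full order, with every DP above every SP and every SP above every DN, was seen in 9 of 10 members and in 6.17% of all genes.

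**Figure D1:**
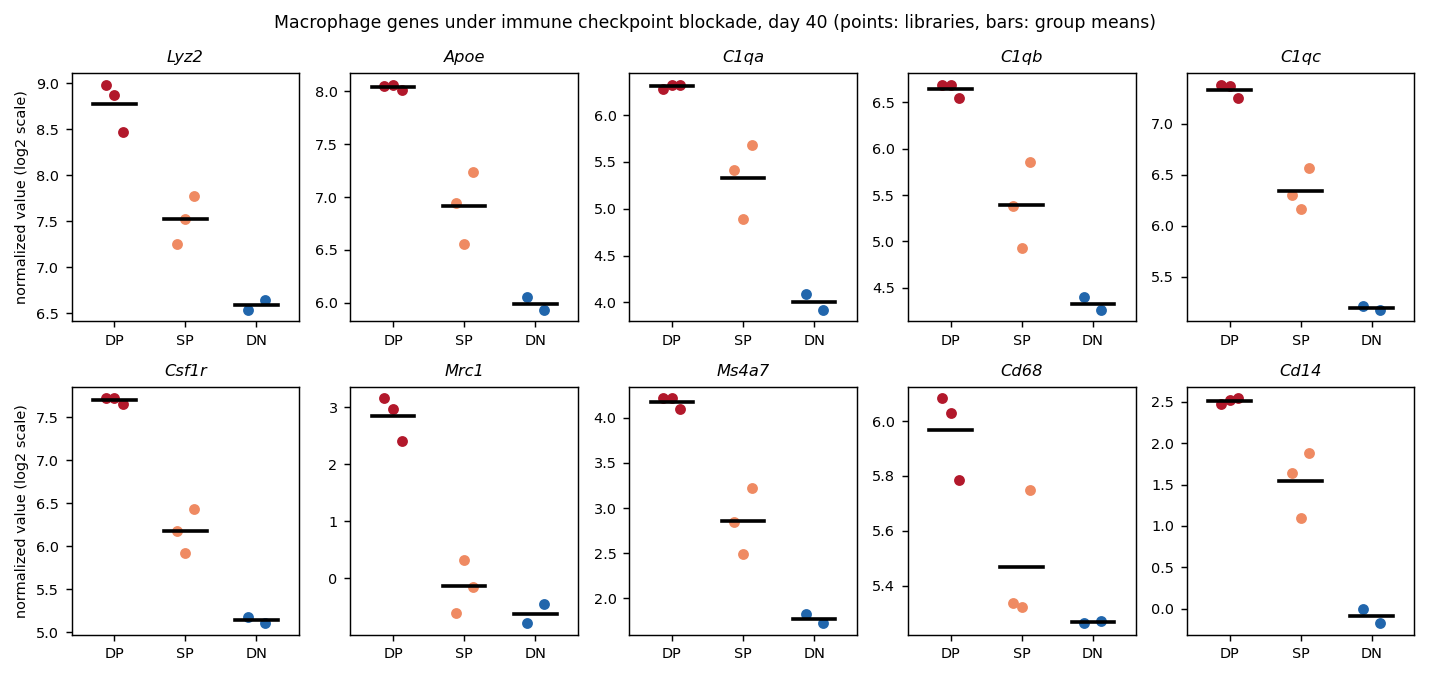
Normalized value (log2 scale) of each of the 10 macrophage genes in the 8 checkpoint blockade libraries of day 40, with DP, SP and DN on the horizontal axis, a point per library and a bar at each group mean. Each gene steps down from DP to SP to DN, and Mrc1 is the gene in which SP and DN libraries overlap.

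The complement chains moved in near parallel. C1qa stood at 6.28, 6.32 and 6.33 in DP, 5.42, 4.89 and 5.68 in SP, and 4.09 and 3.92 in DN. C1qb stood at 6.69, 6.69 and 6.54 in DP, 5.38, 4.93 and 5.86 in SP, and 4.40 and 4.26 in DN. C1qc stood at 7.38, 7.37 and 7.25 in DP, 6.30, 6.17 and 6.57 in SP, and 5.21 and 5.17 in DN. No library of 1 subset crossed into the range of another for any of the 3 chains. DP exceeded DN by 2.30 for C1qa (SE 0.33, limma adjusted p = 0.0252), 2.31 for C1qb (SE 0.35, adjusted p = 0.028) and 2.14 for C1qc (SE 0.23, adjusted p = 0.0139).

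Among surface receptors, Csf1r, which receives the macrophage growth factor CSF1, was at 7.73, 7.73 and 7.65 in DP, 6.18, 5.93 and 6.44 in SP, and 5.18 and 5.10 in DN. Its DP libraries were tight and apart from the rest, with a difference from DN of 2.56 (SE 0.24, limma adjusted p = 0.0109). Mrc1 encodes the mannose receptor CD206, a mark of macrophages that take up glycoproteins and are often called alternatively activated. Its values were 3.17, 2.97 and 2.40 in DP, -0.60, 0.32 and -0.15 in SP, and -0.79 and -0.46 in DN. DP alone was high here, since SP and DN libraries overlapped, and the difference of DP from DN was 3.47 (SE 0.57, adjusted p = 0.0322).

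Cd14, the co-receptor that hands bacterial lipopolysaccharide to TLR4, was at 2.48, 2.52 and 2.55 in DP, 1.64, 1.10 and 1.88 in SP, and 0.00 and -0.18 in DN. Ms4a7, a membrane protein of tissue macrophages, was at 4.22, 4.22 and 4.10 in DP, 2.84, 2.49 and 3.23 in SP, and 1.83 and 1.72 in DN. Both were graded from DP through SP to DN with no overlap. DP exceeded DN by 2.60 for Cd14 (SE 0.47, limma adjusted p = 0.0407) and by 2.41 for Ms4a7 (SE 0.40, adjusted p = 0.033).

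Lyz2, the lysozyme of myeloid cells, was at 8.99, 8.88 and 8.48 in DP, 7.26, 7.53 and 7.78 in SP, and 6.53 and 6.64 in DN. Apoe, the lipid carrier that macrophages secrete, was at 8.05, 8.06 and 8.01 in DP, 6.95, 6.56 and 7.24 in SP, and 6.06 and 5.93 in DN. Again the 3 subsets did not overlap, and DP exceeded DN by 2.19 for Lyz2 (SE 0.26, limma adjusted p = 0.0163) and 2.05 for Apoe (SE 0.26, adjusted p = 0.0195). Cd68 spread least, at 6.08, 6.03 and 5.78 in DP, 5.34, 5.32 and 5.75 in SP, and 5.26 and 5.27 in DN. Its SP library at 5.75 lay just under its lowest DP library, and the difference of DP from DN, 0.70 (SE 0.28), did not pass (adjusted p = 0.188).

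Neither step on its own passed the test for any member, and differences of this size can be missed. On simulated tables of this shape with 200 changed genes, limma's test of DP against DN passed 24% of differences of 1 and 56.7% of differences of 2. The steps themselves were not simulated. The changed genes were drawn at random and not matched to the spread of the members, so these rates are only a rough guide for them. DP differed from SP by 0.50 (Cd68) to 2.99 (Mrc1), with a median of 1.19, and limma passed 0 of 10 members where 0.0372% of all genes passed. At an unadjusted p under 0.05 there were 8 members, and 12.9% of all genes. SP differed from DN by 0.20 (Cd68) to 1.63 (Cd14), with a median of 1.05 and 0 of 10 passed, against 3.83% of all genes. At an unadjusted p under 0.05 there were again 8 members, and 22.3% of all genes. With design-based degrees of freedom, which ignore the lost directions, 10 and 8 members passed these comparisons, and so did 24.1% and 38.8% of all genes. The calls between DP and DN rest on 2 DN libraries: without DN replicate 1, 4 members passed, and without DN replicate 2, 3 passed. C1qa, C1qb, Mrc1, Ms4a7 and Cd14 lost their calls without either one, and Apoe without replicate 2. Without DP replicate 2, Ms4a7 and Cd14 did not pass. No member passed without limma's trend and robust options, while each difference kept its direction in these alternatives. Without SP replicate 2, 5 members passed between SP and DN (Apoe, C1qa, C1qc, Csf1r and Cd14), and C1qc also passed without SP replicate 1 or 3.

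Genes that work with the members were counted from lists. Of 17 other macrophage and monocyte genes measured under checkpoint blockade, 8 were higher in DP than in DN and 1 lower, with a median of 1.41. They included Ccr2, a chemokine receptor of monocytes that activated T cells also carry (1.40, limma adjusted p = 0.00662), and Clec7a, the receptor for fungal glucans (1.97, adjusted p = 0.0217). Of 7 receptors for uptake, 3 were higher: Axl, which recognizes dying cells (1.30, adjusted p = 0.0138), the scavenger receptor Stab1 (2.83, adjusted p = 0.0174) and the Fc receptor Fcgr3 (1.89, adjusted p = 0.0284). Adgre1, Spi1, Trem2 and Mertk, further defining genes of macrophages, were not analysed here in either table.

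Ligands and signalling partners of the members gave 4 higher of 13 between DP and DN. Csf1, the ligand of Csf1r that activated T cells can make, was higher by 2.67 in DP (limma adjusted p = 0.00306) and also by 2.67 in SP than in DN (adjusted p = 0.00735). Fcer1g, the signalling chain of Fc receptors, exceeded its DN level by 2.40 in DP (adjusted p = 0.0194). Of 5 classical complement partners, C3 (2.44, adjusted p = 0.0286) and C3ar1, the receptor of the C3a fragment (1.97, adjusted p = 0.0334), were higher, and Cd55, which shields cells from complement, was lower (-3.39, adjusted p = 0.00519). Of 21 lysosomal genes 6 were higher and none lower, led by Ctsd (0.97, adjusted p = 0.00467), Grn (1.47, adjusted p = 0.00984) and Lgmn (2.00, adjusted p = 0.0263).

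Markers of other cells moved with these differences in part, and their part in the result was not tested. Between DP and DN under checkpoint blockade, the T-cell identity list gave 2 higher and 1 lower of 16 (median 0.22), and 9 genes of B cells gave none in either direction (median -0.85). Of 8 tumor epithelial genes, 1 was higher, Cdh1 (1.43, limma adjusted p = 0.00803), and the mean of its genes, each centred on its mean over the libraries (the mean centred value of the list, log2 scale), was between -1.24 and -1.12 in DN libraries, between -0.0045 and 0.15 in DP and between 0.47 and 0.86 in SP. Of 5 stromal and endothelial genes, 2 were higher in DP than in DN (Cdh5 by 3.27, adjusted p = 0.00382, and Sparc by 2.05, adjusted p = 0.0178). Of 9 dendritic cell genes none was higher and 1 was lower, Ccr7 (-3.86, adjusted p = 0.0161), which naive and central memory T cells also carry. The stromal and endothelial list had a mean centred value of 0.45 in DP, 0.33 in SP and -1.16 in DN, highest in DP and lowest in DN like the members. The 2 neutrophil genes measured, Csf3r and Lcn2, had the same order (0.39, 0.22 and -0.91), and neither passed between DP and DN (differences of 1.63 and 0.96).

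In untreated tumors, Lyz2 and Apoe were the members that differed between subsets past the test over weeks 1 to 6. With the weeks weighted equally, 2 of 6 members were higher in DP than in DN, where 19.5% of all genes passed in either direction and 8.81% were higher. The median difference was 0.41, beside -0.01 over all genes. Between SP and DN 1 of 6 was higher (19.4% of all genes passed, 11% higher), and between DP and SP none passed (3.48% of all genes). At an unadjusted p under 0.05 the comparison of DP with SP held 2 members, and 17.9% of all genes.

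**Figure D2:**
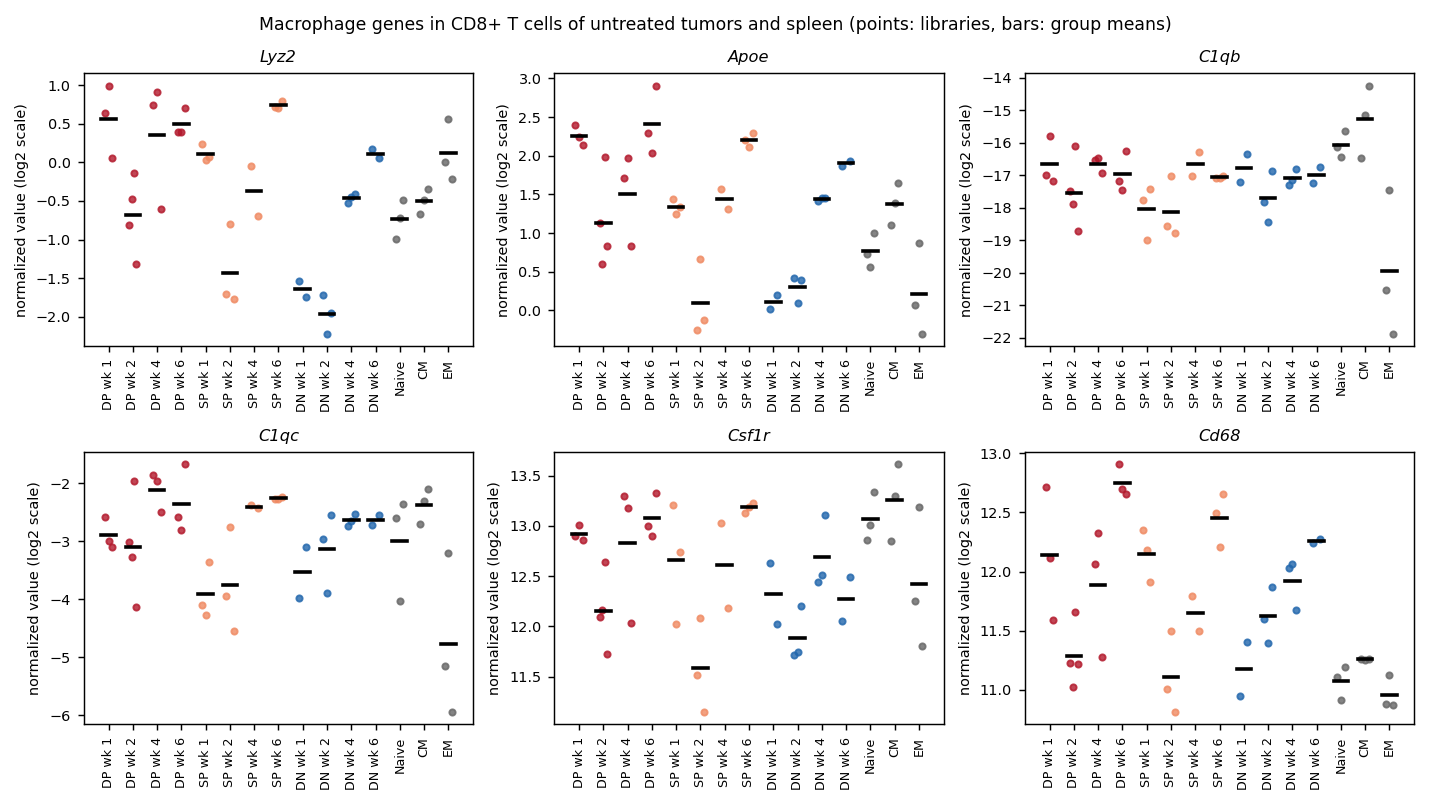
Normalized value (log2 scale) of the 6 macrophage genes of the untreated table in 15 groups, DP, SP and DN at weeks (wk) 1, 2, 4 and 6 and naive, CM and EM cells of the spleen, with a point per library and a bar at each group mean. Lyz2 and Apoe are low in DN at weeks 1 and 2 and in SP at week 2, and C1qb and C1qc are low in spleen EM. Cd68 is low in all 3 spleen groups and about as low in DP and SP at week 2 and in DN at week 1.

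Lyz2 ran from -2.22 (a DN library of week 2) through a median of -0.10 to 0.99 (a DP library of week 1) over the 34 untreated tumor libraries. In DP it was at 0.64, 0.99 and 0.05 in week 1, at -0.81, -0.47, -0.14 and -1.31 in week 2, at 0.75, 0.91 and -0.60 in week 4 and at 0.39, 0.39 and 0.70 in week 6. In SP it was at 0.24, 0.02 and 0.07 in week 1, at -1.71, -0.80 and -1.77 in week 2, at -0.05 and -0.69 in week 4 and at 0.72, 0.71 and 0.79 in week 6. The lowest DP library and the lowest SP library were both of week 2. In DN it was at -1.53 and -1.75 in week 1, at -1.71, -2.22 and -1.94 in week 2, at -0.52, -0.45 and -0.41 in week 4 and at 0.17 and 0.05 in week 6. DN libraries were below every DP library at weeks 1, 2 and 6, and within the DP range at week 4. The share of all genes that separate so at single weeks is not given here, and the groups are small. DP exceeded DN by 1.17 (SE 0.19, limma adjusted p = 0.000238) and SP exceeded DN by 0.75 (SE 0.20, adjusted p = 0.0134), and DP and SP differed by 0.42 (SE 0.19, adjusted p = 0.24).

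Apoe was at 2.40, 2.24 and 2.13 in DP of week 1, at 1.13, 0.59, 1.99 and 0.84 in week 2, at 1.71, 1.98 and 0.83 in week 4 and at 2.30, 2.03 and 2.91 in week 6. In SP it was at 1.43, 1.25 and 1.34 in week 1, at -0.25, 0.66 and -0.12 in week 2, at 1.57 and 1.31 in week 4 and at 2.21, 2.11 and 2.30 in week 6. In DN it was at 0.02 and 0.20 in week 1, at 0.42, 0.09 and 0.40 in week 2, at 1.42, 1.46 and 1.46 in week 4 and at 1.87 and 1.94 in week 6. DN was thus below DP without overlap at weeks 1, 2 and 6, again without a share of all genes to set beside it, and inside its range at week 4. DP exceeded DN by 0.89 (SE 0.19, limma adjusted p = 0.00206) and SP exceeded DN by 0.33 (SE 0.20, adjusted p = 0.247). The difference of DP from SP was 0.56 (SE 0.18, adjusted p = 0.0969), and it passed without SP week 2 replicate 2 (0.63) or DP week 4 replicate 3 (0.64).

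The other members did not pass between tumor subsets over weeks 1 to 6. Csf1r differed between DP and DN by 0.45 (SE 0.22, limma adjusted p = 0.149), C1qc by 0.37 (SE 0.34), Cd68 by 0.27 (SE 0.15) and C1qb by 0.19 (SE 0.47). Their tumor values spanned 11.15 to 13.32 for Csf1r, -4.55 to -1.66 for C1qc, 10.81 to 12.91 for Cd68 and -18.98 to -15.77 for C1qb. The complement chains were the noisiest members, with a pooled SD within groups of 0.93 for C1qb and 0.68 for C1qc, beside 0.38 for Lyz2 and a median of 0.22 over all genes. A p above the threshold does not show that these genes were alike in the subsets.

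**Figure D3:**
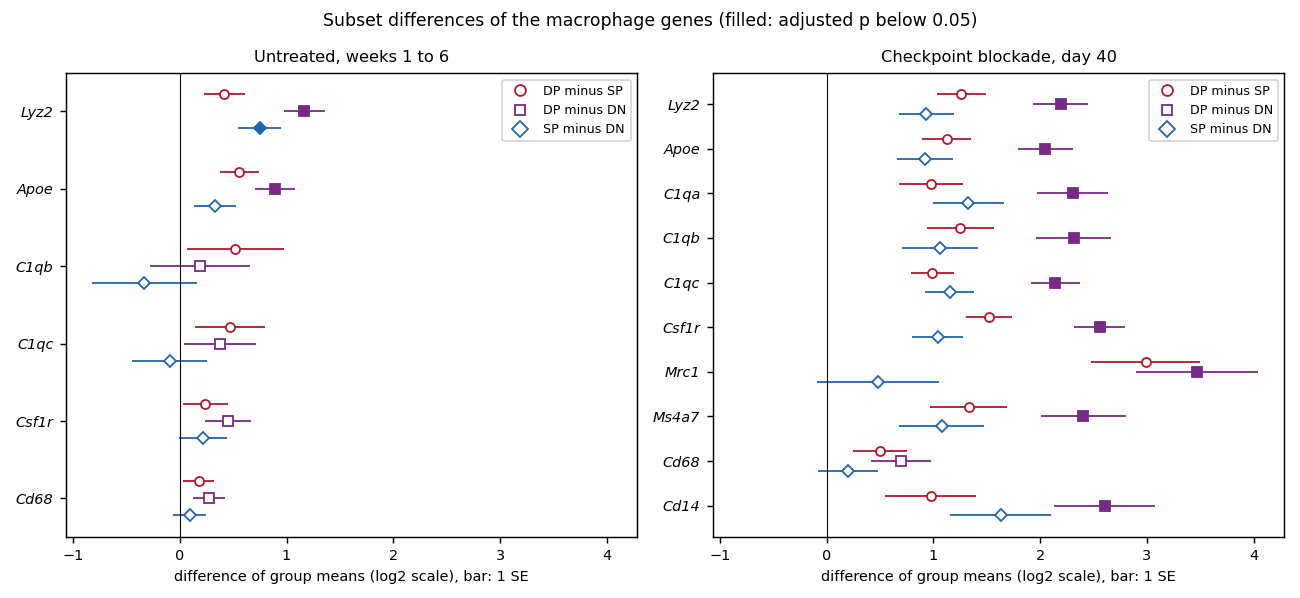
Difference of group means (log2 scale) of each macrophage gene between DP, SP and DN, in untreated tumors over weeks 1 to 6 (left, 6 genes) and under checkpoint blockade on day 40 (right, 10 genes), with bars of 1 SE and filled symbols at an adjusted p below 0.05. The DP minus DN symbols lie between 0.19 and 1.17 on the left and between 0.70 and 3.47 on the right, 2 tables that were normalized apart and were not tested against each other.

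Differences of DN from the others cannot be told apart from the ranges of library codes in full, since few DP or SP libraries share a range with DN. Within codes 46 to 61, the 1 DP library of week 2 can be set against the mean of 3 DN libraries. It was higher by 0.65 for Lyz2 and 0.54 for Apoe. The other members were lower in it, with differences of -1.01 (C1qb), -0.996 (C1qc), -0.40 (Cd68) and -0.17 (Csf1r). The 1 DP library of week 6 exceeded the mean of 2 DN libraries by 0.59 for Lyz2 and 1.00 for Apoe. The other members were higher there too, by 0.73 (C1qb), 0.97 (C1qc), 0.39 (Cd68) and 1.05 (Csf1r). With the code range as a term, the limma differences between DP and DN were 1.04 for Lyz2 and 1.01 for Apoe, and neither passed (adjusted p = 0.174 and 0.173, the highest among the alternatives tried for each). The SP to DN difference of Lyz2 was then 0.62 (adjusted p = 0.543). Without week 1, the DP to DN difference of Lyz2 was 0.82 and passed (adjusted p = 0.00975), that of Apoe was 0.47 and did not (adjusted p = 0.116), and the SP to DN difference of Lyz2 was 0.42 and did not (adjusted p = 0.236).

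By week, Lyz2 and Apoe differed between DP and DN past the test at week 1. At that week 3 of 6 members were higher in DP than in DN, where 22.7% of all genes passed and 11.8% were higher: Lyz2 by 2.20 (SE 0.42, limma adjusted p = 0.000766), Apoe by 2.15 (SE 0.40, adjusted p = 0.000695) and Cd68 by 0.96 (SE 0.32, adjusted p = 0.0347). The call of Cd68 was lost without DN replicate 1 (0.73), DP replicate 1 (0.67) or DP replicate 2 (0.97) of that week. Lyz2 was also higher in SP than in DN at week 1, by 1.75 (adjusted p = 0.0149), 1 of 6 where 7.26% of all genes passed and 5.48% were higher, and this call was lost without either DN library (1.86 and 1.64). No member passed between DP and SP at week 1 (17.4% of all genes), 2 (0%), 4 (0.142%) or 6 (0%). At weeks 2, 4 and 6 none passed between DP and DN (0.814%, 21.9% and 3.2% of all genes) or between SP and DN (0.464%, 13.6% and 3.02%).

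The difference between DP and DN for Lyz2 was 2.20, 1.27, 0.81 and 0.39 at weeks 1, 2, 4 and 6, and for Apoe 2.15, 0.83, 0.06 and 0.51. Tested as an interaction, the week 1 difference exceeded the mean of the later weeks by 1.68 for Apoe (SE 0.45, limma adjusted p = 0.00972) and by 1.38 for Lyz2 (SE 0.47, adjusted p = 0.0361), 2 of 6 members where 25.8% of all genes passed and 14.3% were higher. The call of Apoe was lost without DN week 1 replicate 1 (1.59), and that of Lyz2 without either DN library of week 1 (1.48 and 1.27) or without DP week 1 replicates 1 or 2 (1.34 and 1.16). For Cd68 the interaction was 0.92 (adjusted p = 0.0657), and it passed without DP week 1 replicate 3 (1.20), DP week 2 replicate 3 (0.96) or DP week 4 replicate 2 (0.99). Corresponding interactions of DP with SP and of SP with DN passed for none of the 6 (14.7% and 6.53% of all genes).

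**Figure D4:**
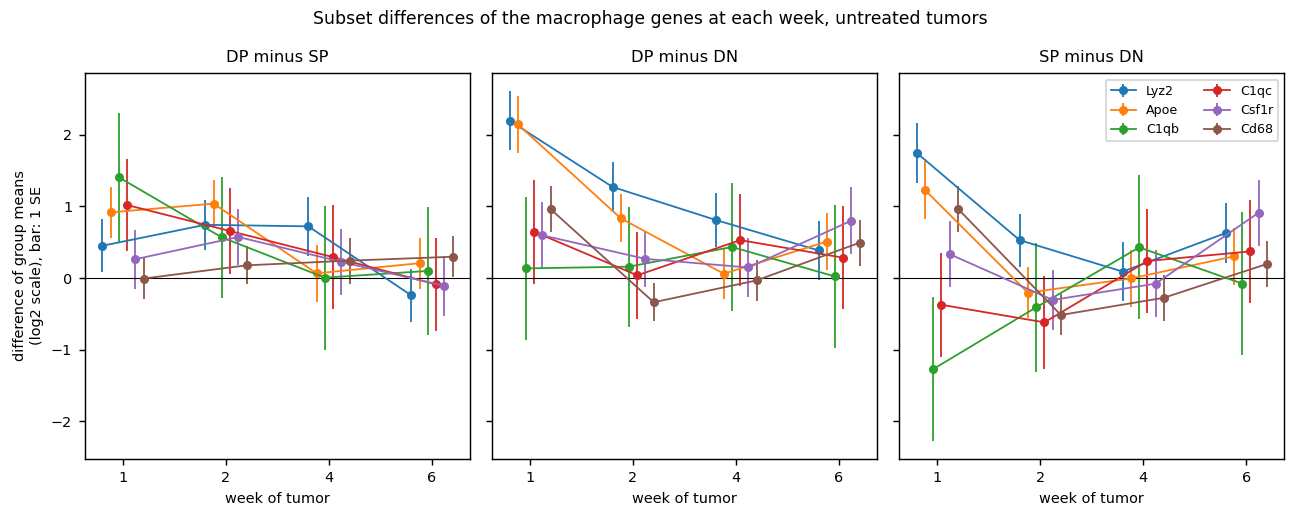
Difference of group means (log2 scale, bars of 1 SE) between tumor subsets at weeks 1, 2, 4 and 6, drawn at even steps, for the 6 macrophage genes of the untreated table, in panels for DP minus SP, DP minus DN and SP minus DN. Lyz2 and Apoe start at 2.20 and 2.15 in the middle panel and lie at 0.39 and 0.51 at week 6, while the C1qb and C1qc symbols carry the widest bars.

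Markers of other cells differed between these groups at week 1 too, and their part in the result was not tested. Of the 5 tumor epithelial genes measured, 4 were higher in DP than in DN at week 1 (median 4.80) and 4 were higher in SP than in DN (median 4.06). The mean centred value of that list was between 2.23 and 3.46 in DP, between 1.95 and 2.46 in SP and between -1.56 and -1.06 in DN libraries of week 1. Of 16 T-cell identity genes, 11 were lower in DP than in DN at week 1 (median -0.74) and none was lower in SP (median 0.12). The neutrophil list had a mean centred value between 0.64 and 1.10 in DP and between -0.32 and -0.0099 in DN of week 1. The list of other macrophage and monocyte genes, with 10 measured, was lower in DP (-0.41 to -0.12) than in DN (-0.013 to 0.11) of week 1. The 3 receptors for uptake went the other way, from -0.061 to 0.69 in DP and from -0.73 to -0.64 in DN. Both DN libraries of week 1 carry codes 72 to 75 and no DP or SP library does, so the differences from DN at week 1 and the codes cannot be told apart.

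Within a subset, the members were compared between the first and the last week. From week 1 to week 6, 2 of 6 members rose in DN (5.79% of all genes passed and 4.98% rose): Apoe by 1.79 (SE 0.44, limma adjusted p = 0.0205) and Lyz2 by 1.75 (SE 0.46, adjusted p = 0.0282). Cd68 was at 10.95 and 11.40 at week 1 and at 12.25 and 12.27 at week 6, a difference of 1.08 (SE 0.35, adjusted p = 0.0746). Each group here holds 2 libraries, and the 2 groups carry different code ranges. The call of Lyz2 was lost without any 1 of the 4 libraries (1.64 to 1.85) and that of Apoe without DN week 1 replicate 1 (1.71) or either library of week 6 (1.83 and 1.76). With the code range as a term neither passed (adjusted p = 0.495 for Lyz2 and 0.494 for Apoe, the highest among their alternatives), nor did they in the fit of only these groups (adjusted p = 0.115 and 0.113), where no gene passed.

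Lists of other cells were also higher in DN at week 6, and their part in the result was not tested. Of 5 epithelial genes 4 rose (median 3.70), and of 3 neutrophil genes 1 rose, Lcn2 (3.42, limma adjusted p = 0.0341). The mean centred value of the neutrophil list was between -0.32 and -0.0099 at week 1 and between 0.89 and 0.93 at week 6. That of the dendritic cell list was between -0.30 and -0.0058 and then between 0.25 and 0.54, and that of the stromal and endothelial list between -0.20 and 0.34 and then between 0.63 and 0.80. No gene of these last 2 lists passed.

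In SP each of the 6 means was larger at week 6 than at week 1, by 0.31 (Cd68) to 1.65 (C1qc), and none passed limma's test (2.72% of all genes), while 2 members and 16.9% of all genes had an unadjusted p under 0.05. In 4 of the 6 every library of week 6 was above every library of week 1, as in 21.7% of all genes. C1qc, for instance, was at -4.10, -4.27 and -3.36 at week 1 and at -2.27, -2.27 and -2.24 at week 6, with no overlap, for an SE of 0.65 and an adjusted p of 0.185. In DP none of the 6 passed between weeks 6 and 1 (25% of all genes), and the differences ran from -0.32 (C1qb) to 0.61 (Cd68, adjusted p = 0.122). Without DP week 1 replicate 1 the difference of Cd68 was 0.90 and passed. Whether DN differed from DP or SP in its change from week 1 to week 6 was not tested.

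In spleen the complement genes and lysozyme did not move together. Cells labelled EM had the lowest C1qb and C1qc means of all 15 groups. C1qb was at -20.53, -17.45 and -21.87 in EM, at -16.14, -16.42 and -15.64 in naive cells and at -16.46, -15.14 and -14.24 in CM cells. C1qc was at -5.15, -3.21 and -5.94 in EM, at -2.59, -4.03 and -2.35 in naive cells and at -2.70, -2.30 and -2.10 in CM cells. EM libraries lay below both other groups for C1qb, without a share of all genes to set beside it, and 1 EM library was within the naive range for C1qc. EM was lower than naive for C1qb (difference -3.88, SE 0.90, limma adjusted p = 0.00299) and for C1qc (difference -1.78, SE 0.65, adjusted p = 0.0493), 2 of 6 members where 24.6% of all genes passed and 12% were lower. The call of C1qc was lost without naive replicates 1 or 3 (-1.58 and -1.45), without EM replicates 1 or 3 (-1.58 and -1.19), without the trend and robust options (adjusted p = 0.0507) and in the fit of only the groups compared (adjusted p = 0.128), with adjusted p between 0.00345 and 0.256 over its alternatives.

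Lyz2 went the other way in these cells, at 0.00, 0.56 and -0.22 in EM, -0.99, -0.73 and -0.48 in naive and -0.67, -0.49 and -0.35 in CM. EM libraries were above all naive libraries, and the share of all genes that separate so is not given here. The difference of 0.85 (SE 0.37) did not pass limma's test (adjusted p = 0.105). It passed with design-based degrees of freedom, after quantile normalization and in the fit of only the groups compared (adjusted p = 0.027, 0.0136 and 0.0394, between 0.0136 and 0.265 over its alternatives). CM differed from naive cells for none of the 6 (18.8% of all genes), by 0.19 to 0.79. Of 19 lysosomal genes, 12 were lower and 2 higher in EM than in naive cells, led by Ctss, a protease of antigen presentation (-1.98, adjusted p = 8.91e-06), and Npc2, which exports cholesterol from the lysosome (-1.62, adjusted p = 2.35e-05). Of the other macrophage and monocyte genes, 4 of 10 were higher in EM and 2 lower; the higher ones included Cx3cr1 (4.33) and Ccr2 (5.46), which effector T cells also carry.

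Against spleen EM, tumor cells were higher for 4 of 6 members in DP (29.7% of all genes passed, 13.8% higher), for 4 of 6 in SP (29.4%, 15.9% higher) and for 3 of 6 in DN (20.6%, 10.2% higher). These comparisons share the 3 EM libraries, and EM had the lowest mean of all 15 groups for C1qb, C1qc and Cd68. Tumor cells were not tested against naive or CM cells here. For C1qb the means of naive (-16.065) and CM cells (-15.28) lay above the highest tumor group mean (-16.64, DP of week 1). A higher C1qb than in EM is thus not a higher C1qb than in spleen cells at large. C1qb was higher by 3.00 in DP (SE 0.71, limma adjusted p = 0.00304), 2.48 in SP (adjusted p = 0.0131) and 2.81 in DN (adjusted p = 0.00959). C1qc was higher by 2.16, 1.69 and 1.78 (adjusted p = 0.00307, 0.0183 and 0.0197). Cd68, which ran from 10.87 to 11.26 in all 9 spleen libraries, was higher by 1.06, 0.88 and 0.79 (adjusted p = 0.00134, 0.00666 and 0.0203). These 3 genes thus passed in each of the tumor subsets. Apoe, at 0.07, 0.87 and -0.30 in EM, was higher by 1.61 in DP (adjusted p = 0.000215), 1.06 in SP (adjusted p = 0.00875) and 0.73 in DN, where it did not pass (adjusted p = 0.0811). Lyz2 was lower in DN than in EM (-1.10, SE 0.30, adjusted p = 0.0133), 1 of 6 where 10.5% of all genes were lower, and differed by 0.07 in DP and -0.35 in SP.

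Markers of other cells also differed between tumor cells and EM, and their part in the result was not tested. All 5 tumor epithelial genes measured were higher in DP, SP and DN than in EM by limma's test, with medians of 3.77, 3.80 and 3.05. Of 6 B-cell genes, 6 were lower in DP than in EM (median -2.03) and 5 in SP (median -1.81) and in DN (median -1.99). The mean centred value of the B-cell list was between 0.99 and 2.40 in the EM libraries.

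The C1q differences against EM depend on which EM libraries are used. Without EM replicate 3, C1qb was higher by 2.04 in DP, 1.52 in SP and 1.85 in DN and passed in none of the 3, and the same held for C1qc (1.57, 1.10 and 1.19). Without EM replicate 1 both lost their calls in SP (2.19 and 1.50) and in DN (2.52 and 1.59), as did Cd68 in DN (0.75). Without EM replicate 3 the call of Cd68 in DN (0.74) and of Apoe in SP (0.80) were lost, and without EM replicate 2 Lyz2 in DN (-0.88) lost its call and Apoe in DN (1.06) gained one. After quantile normalization the C1qb differences were 0.73, 0.25 and 0.52 and did not pass. With the code range as a term all 4 calls of DN against EM were lost, at differences of 2.88 for C1qb, 1.88 for C1qc, 0.89 for Cd68 and -0.95 for Lyz2.

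Ordered by group mean, the 6 genes did not share an order over the 15 untreated groups. Apoe and Cd68 were highest in DP of week 6, Lyz2 in SP of week 6, C1qc in DP of week 4, and C1qb and Csf1r in spleen CM. The lowest groups were SP of week 2 for Apoe and Csf1r, DN of week 2 for Lyz2, and spleen EM for C1qb, C1qc and Cd68. Of 14 neighbouring pairs in these orders, the libraries were apart in 2 for Apoe, 1 for C1qc, 1 for Lyz2 and 0 for each of the other 3. The share over all genes is not given here, so these counts do not set the members apart from other genes. With each gene centred and divided by its SD over the libraries, the mean of the 6 was highest in DP of week 6 (0.97) and SP of week 6 (0.93) and lowest in SP of week 2 (-1.14) and spleen EM (-1.05). Centred only, the highest groups were the same, and spleen EM was below SP of week 2.

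As a description over 15 group means that share libraries, a table and its normalization, Pearson's r was 0.81 between Lyz2 and Apoe, 0.79 between C1qb and C1qc, and 0.02 between Lyz2 and C1qb. Over the 12 tumor groups these were 0.94, 0.72 and 0.43. Across the same 15 groups, the 8 genes whose group means followed the mean of the 6 members most closely were Lgmn (r = 0.93), Fcgr3 (0.91), Colgalt1 (0.86), Ctsb (0.84), Hexa (0.80), Axl (0.79), Plbd2 (0.79) and Ftl1 (0.79). Lgmn, Ctsb and Hexa encode lysosomal enzymes, and Fcgr3 and Axl are among the receptors for uptake. These values carry no test.

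Partner genes were counted in untreated tumors as well. Of 9 signalling partners, 3 were higher in DP than in DN: Fcer1g (1.97, limma adjusted p = 1.04e-05), Csf1 (0.95, adjusted p = 0.00101) and Tyrobp, a signalling adaptor of myeloid and NK cells (0.70, adjusted p = 0.0219). Of 10 other macrophage and monocyte genes, Ly6c2 (-1.35, adjusted p = 1.67e-05) and Ccr2 (-1.49, adjusted p = 8.39e-05), which T cells also carry, were lower in DP than in DN. Of 3 receptors for uptake, Fcgr3 exceeded its DN level in DP (0.75, adjusted p = 0.0134). Of 19 lysosomal genes, 10 were higher in DP than in DN and none lower (median 0.30), led by Ctsc (0.47, adjusted p = 0.000638), Lamp2 (0.36, adjusted p = 0.00381) and Ctss (0.58, adjusted p = 0.00515). Both complement partners measured were regulators, of which Cd55 was lower in DP than in DN (-0.94, adjusted p = 0.000315).

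Over weeks 1 to 6 the markers of other cells that moved between DP and DN were counted in the same way, and their part in the result was not tested. Among 16 T-cell identity genes, 9 were lower and 1 higher in DP than in DN (median -0.28), and 13 were lower and none higher in DP than in SP (median -0.40). Of 5 epithelial genes, Krt19 (1.47, limma adjusted p = 0.00889) and Epcam (0.79, adjusted p = 0.0143) were higher in DP than in DN. No gene of the 4 dendritic cell or 3 neutrophil markers measured passed in that comparison. Of 6 B-cell genes 1 was higher and 2 lower.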

How the data were processed

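CD8+ T cells were purified by FACS, and 3' mRNA libraries were made from 10 ng of RNA with the QuantSeq FWD kit and read as 75 bp single ends, per the labels' protocols. Per the submitters' processing notes, HISAT2 and HTSeq were used with mm10; no versions are stated. The deposited tables hold the authors' normalized values on a log scale, read here as log2. That base was inferred from the values, and the normalization is not given in the sources used here. The table of 43 untreated libraries and that of 8 checkpoint blockade libraries were never mixed.

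The fits used limma 3.58.1 (R 4.3.3, statmod 1.5.0) on all genes and groups of a table, with trend and robust options. Subset contrasts average weeks 1, 2, 4 and 6 equally. Because the deposited values span fewer directions than the design leaves, residual degrees of freedom were multiplied by 0.643 and 0.4, and residual variances divided by the same ratios. On simulated tables with the same loss, 4.9% of unchanged genes had a p below 0.05 for the comparison of DP with DN over 10560 genes, against 11.7% with design-based degrees of freedom. For the checkpoint blockade comparison of DP with DN over 13458 genes these were 5.29% and 24.4%.

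The members and the gene lists were chosen with earlier results of these data known. Genes named are the members, up to 3 genes of a list per comparison with the smallest adjusted p among those that passed, the 8 genes nearest to the members' mean, and the sort markers; Cdh5 and Sparc, Krt19 and Epcam fall under the list rule. Some list genes that the rule would name are not reported here. A list's centred value is the mean of its genes after each was centred on its mean over libraries; the score of the 6 members, used to find the nearest genes, also divides each by its SD. Replicate numbers were checked for pairing by the correlation of deviations from group means, between samples of different groups. In the untreated table the median was 0.00253 for same-numbered samples (56 of 276 pairs over 0.1) and -0.00217 for the others (117 of 585). In the other table these were 0.361 (4 of 7) and -1.39e-17 (7 of 14). The numbers were not used as a block in the main fits. A check by number cannot tell whether libraries of different subsets came from the same animals. Library codes do not always run with the numbers. Under blockade, DN replicate 1 (code 85) follows DP and SP replicate 2 (codes 83 and 84). A pairing by consecutive codes was not tried. Alternatives were design-based degrees of freedom, no trend and robust options, quantile normalization, median rescaling, a filter at the lower quartile of gene means, a replicate block, only the groups compared, a term for the library code range, no week 1, and each library left out.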

Additional observations from a re-analysis of the deposited data

Results flagged for a closer look

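In untreated tumors, 18 tests asked whether a subset difference at week 1 departed from its mean over weeks 2 to 6, for 6 genes and 3 pairs of subsets, and 2 passed limma's test over all genes. Apoe was higher in DP than in DN by 2.15 at week 1 and by 0.83, 0.06 and 0.51 at weeks 2, 4 and 6, and the interaction was 1.68 (adjusted p = 0.00972). Lyz2 was higher by 2.20 at week 1 and by 1.27, 0.81 and 0.39 later, with an interaction of 1.38 (adjusted p = 0.0361). Both were marked because the test of the difference itself passed. Tumor epithelial genes moved with them: 4 of 5 were higher in DP than in DN at week 1, with a median of 4.80, and the part of these genes in the result was not tested. At week 1, differences of DN from the other subsets cannot be told apart from the library codes. No library stood apart from the rest of its group by Dixon's criterion for any of the 6 genes in DP of week 2, the 1 group of 4 libraries, where this could be tested, and chance alone marks about 1 in 20 such groups.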

How the results depend on the processing

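Of 1892 alternative values for single members, 1693 kept their direction and their side of the threshold, 75 lost a call, 89 gained one and 35 changed sign without a call on either side. Unless a construction is named, the cause was not tested. The depth of each library is unknown, so its limit cannot be given.

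Counts of members that passed, of 6 or 10, moved by more than 1.5 times as follows. With design-based degrees of freedom, which widen the residual information by construction, the count rose from 0 to 1 for DP against SP, to 1 for DP and 2 for SP between weeks 6 and 1, and under checkpoint blockade from 0 to 10 for DP against SP and to 8 for SP against DN. After quantile normalization it was 2 for DP against SP, 2 for SP against DN, 1 for DP and 1 for SP between weeks, and 9 and 8 for the same blockade comparisons. Median rescaling gave 2 and 4 there. The filter removed Lyz2, Apoe, C1qb and C1qc from the untreated table, at percentiles 0.076 to 5.74 of mean level. Every member that had passed for DP against DN, SP against DN, DN between weeks and EM against naive was among them. The count of 0 in these comparisons was thus set by the filter. Cd68 gave the count of 1 for each tumor subset against EM. Under blockade the filter left Lyz2, Apoe, C1qc and Csf1r, and all 4 passed for DP against DN. Fits of only the groups compared gave 1 for DP against SP, 2 for SP against DN, 3 for SP and 0 for DN between weeks, 1 for CM against naive and 3 for SP against DN under blockade. The term for the code range gave 0 for DP against DN, SP against DN, DN between weeks and DN against EM. Without week 1 the counts were 1 for DP against DN and 0 for SP against DN. Without trend and robust options they were 1 for EM against naive and 0 for DP against DN under blockade. The replicate block gave 1 for SP against DN under blockade (C1qc, limma adjusted p = 0.0415, range of its alternatives 0.000708 to 0.157). It passed Cd68 between weeks 6 and 1 in DN (adjusted p = 0.0495, range 0.00797 to 0.809) and changed no other call of a member. Whether a shared number marks a pairing is not known.

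Gains that left a count within 1.5 times were Csf1r for DP against DN (design-based, only the groups compared), Cd68 for DP against DN under blockade (both of these and quantile normalization), Apoe for DN against EM (both, quantile normalization, no week 1) and Lyz2 for EM against naive (design-based, quantile normalization). Cd68 in DN between weeks also passed with design-based degrees of freedom and after quantile normalization. In the fit of only the groups compared, EM against naive gained Lyz2 and lost C1qc.

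Leaving out 1 library gave 0 to 1 for DP against SP, 0 to 1 for DP and 0 to 1 for DN between weeks, 2 to 4 for DP, 1 to 4 for SP and 1 to 4 for DN against EM, 1 to 2 for EM against naive, and 3 to 9 and 0 to 5 for DP and SP against DN under blockade. In comparisons whose libraries were left out as a choice made after seeing the data, it gave 2 to 3 for DP against DN at week 1, 0 to 1 for SP against DN at week 1, and 0 to 3 for the week 1 interaction of DP with DN.

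Sign changes were these. After quantile normalization C1qc was 0.076 for SP against DN, C1qb was -0.20 for SP between weeks and -0.25 for CM against naive, and Csf1r was -0.0062 for SP against EM. With the code range as a term Cd68 was -0.013 for SP against DN, and C1qb and Csf1r were 0.19 and 0.57 for DN between weeks. Without week 1 Cd68 was -0.20 for SP against DN and Lyz2 was -0.062 for DP against EM. Leaving out libraries, C1qc ran from -0.22 to 0.013 for SP against DN. For DP between weeks Lyz2 ran from -0.32 to 0.15, Apoe from -0.090 to 0.35 and C1qb from -0.68 to 0.11, and for DN C1qb from -0.65 to 0.23 and Csf1r from -0.36 to 0.25. Against EM, Lyz2 ran from -0.10 to 0.29 in DP, and Csf1r from -0.22 to 0.48 in SP and -0.43 to 0.26 in DN. At week 1, C1qb ran from -0.31 to 0.58 for DP against DN and C1qc from -0.81 to 0.063 for SP against DN. In the interaction of DP with DN, C1qb ran from -0.51 to 0.37, C1qc from -0.073 to 0.80 and Csf1r from -0.12 to 0.50.

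Counts over all genes that moved by more than 1.5 times were these. The settings listed first gave more calls. The residual rank after quantile normalization is not given here, and the cause of its larger counts was not tested. Design-based degrees of freedom and quantile normalization gave 1554 and 1327 for DP against SP (368 as reported), 3648 and 3648 for DP against DN (2057) and 3679 and 3689 for SP against DN (2044). Between weeks 6 and 1 they gave 4196 and 4081 in DP (2636), 1380 and 1321 in SP (287) and 1996 and 1761 in DN (611). They gave 3815 and 3890 for DN against EM (2180), 4011 and 4119 for EM against naive (2601) and 3425 and 3563 for CM against naive (1986). Under blockade they gave 3250 and 3210 for DP against SP (5), 6101 and 6212 for DP against DN (1008) and 5217 and 5187 for SP against DN (515). There, median rescaling gave 169, 3031 and 2151, the replicate block 38, 1868 and 1129, only the groups compared 8, 4758 and 1498, and no trend and robust options 1, 14 and 0, and the filter gave 13 for DP against SP. Fits of only the groups compared gave 1254, 3145 and 3395 for the 3 untreated subset pairs, 1828 for SP and 0 for DN between weeks, and 4177 for CM against naive. The code range term gave 199 for DP against DN, 116 for SP against DN, 0 for DN between weeks and 263 for DN against EM. Without week 1, DP against SP gave 44. For SP between weeks the replicate block gave 522 and the filter 188. Leaving out 1 library gave 946 to 2452 for DN against EM, 91 to 897 for DN between weeks, 1095 to 2406 for DP against DN at week 1, 1324 to 2924 for the DP with DN interaction, 1897 to 3462 for DP against EM, 287 to 1886 for DP against DN under blockade, 0 to 31 for DP against SP under blockade, 109 to 1073 for SP against DN under blockade, 128 to 783 for SP against DN at week 1, 1803 to 3283 for SP against EM, 109 to 212 for SP between weeks, 1311 to 2155 for CM against naive and 1708 to 2974 for EM against naive.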
